A study of Arabidopsis thaliana with 9 samples.

Results

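The genes described here build or acetylate the polysaccharides of the plant cell wall. They were picked by current gene symbol, as every array probe set with exactly 1 gene in the families TBL, GATL, GAUT, GUX, IRX, FLA, AGP, CESA and CSLA to CSLG. This rule was set with earlier results of these data known. The rule found 33 of 16550 tested genes, each with 1 of the 16722 tested probe sets: 23 of the TBL family, 9 of the CSL family and IRX15. RefSeq lists 154 genes under these symbols, among them 41 TBL and 30 CSL genes. None of its CESA, GAUT, GATL, FLA and AGP genes was tested, and many TBL genes and most CSL and IRX genes were not tested either. RNA came from whole Arabidopsis thaliana plantlets grown for 21 days in boxes on nutrient medium. Control plantlets met the solvent acetone only. Exposed plantlets met 50 mg per L of 2,5-dichlorobiphenyl (2,5-DCB), a polychlorinated biphenyl, or else 5 mg per L of its hydroxylated metabolite 4'-OH-2,5-DCB. Each group had 3 arrays, and the exposures were given at unequal doses. Nothing in the labels names separate plants or boxes for the arrays, so p-values cover array-to-array spread alone, possibly a technical one.

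Plant walls consist of cellulose fibres in a matrix of xylan, xyloglucan, mannan and pectin. Cellulose synthase-like (CSL) enzymes of the Golgi make backbones of matrix polysaccharides: CSLA enzymes make mannan, CSLC enzymes the glucan chain of xyloglucan, and CSLD enzymes act in tip-growing and dividing cells. TRICHOME BIREFRINGENCE-LIKE (TBL) proteins are mostly O-acetyltransferases that add acetyl groups to these backbones, and acetylation affects how the polymers bind each other and how enzymes reach them. IRX15 is needed for normal xylan in secondary walls, the thick walls of xylem and fibres.

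The values are log2 signals from Affymetrix whole-transcript arrays, on which a difference of 1 is a 2-fold change. Replicate 1 of 4'-OH-2,5-DCB stood apart. Its SD across tested probe sets was 1.68, below the 2.13 or more of the other 8 arrays, and its highest correlation with any array was 0.927, below the 0.956 that every pair of the other 8 reached. The spread of every test is pooled over the 9 arrays, so calls that change without it, and the genes that move most, are also given without it.

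The 6 measured TBL genes of xylan acetylation were grouped after the values were seen. Of these 2 passed under 2,5-DCB, TBL28 and TBL30 (background 4.65% of all tested probe sets). TBL28 alone passed under 4'-OH-2,5-DCB (background 2.91%). TBL28, which acetylates xylan, fell under both exposures. Its signals were 7.51, 7.99 and 7.62 on the control arrays, 5.99, 6.36 and 6.39 under 2,5-DCB, and 6.33, 6.70 and 6.90 under 4'-OH-2,5-DCB. Every exposed array lay below every control array. The fall was 2.76-fold under 2,5-DCB (log2 change -1.46, SE 0.21, limma adjusted p 0.00683) and 2.09-fold under 4'-OH-2,5-DCB (-1.06, SE 0.21, adjusted p 0.0322). The call under 2,5-DCB held with each of the 9 arrays left out in turn, with adjusted p-values of 0.00161 to 0.0418. The call under 4'-OH-2,5-DCB held in 3 of the 9 cases. Leaving out control replicate 1, 2 or 3 ended it (adjusted p 0.0747, 0.146 and 0.0949), as did leaving out 2,5-DCB replicate 2 (0.0626), 2,5-DCB replicate 3 (0.0621) or 4'-OH-2,5-DCB replicate 2 (0.0745). The change stayed between -1.19 and -0.91.

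TBL30, another xylan acetyltransferase gene, is the next protein-coding gene after TBL28 in RefSeq (AT2G40160 beside AT2G40150, chromosome 2). It fell 2.46-fold under 2,5-DCB, to 3.74, 3.77 and 4.30 from 5.07, 5.52 and 5.11 in the control (log2 change -1.30, SE 0.24, adjusted p 0.0202). The 2,5-DCB arrays were all lower than the control arrays. The signals under 4'-OH-2,5-DCB were 5.38, 4.78 and 4.68, a range that overlapped the control (change -0.29, 95% interval -0.84 to 0.26, adjusted p 0.530). There the odd array was the high one, and without it the change was -0.51 (adjusted p 0.191). Leaving out any control array ended the call under 2,5-DCB (adjusted p 0.0511, 0.0999 and 0.0587 without replicate 1, 2 or 3), as did leaving out 2,5-DCB replicate 1 (0.0718) or replicate 2 (0.0971). TBL28 and TBL30 are related in sequence, and their probe sets may share some signal.

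The other xylan acetylation genes measured, TBL31, TBL32, TBL33 and TBL34, did not pass under either exposure. TBL32 had 6.50, 6.72 and 6.76 in the control and 7.13, 6.93 and 7.02 under 2,5-DCB, higher on all 3 arrays, with a change of 0.37 (SE 0.18, adjusted p 0.361). TBL33, which adds acetyl groups to xylan xyloses beside glucuronic acid, had 4.19, 4.53 and 4.47 in the control and 4.19, 4.04 and 3.85 under 2,5-DCB (change -0.37, adjusted p 0.736). On 4'-OH-2,5-DCB replicate 1 it read 5.41, above all other arrays, while replicates 2 and 3 read 4.20 and 4.04. Its change there was 0.16, and -0.27 (adjusted p 0.346) without replicate 1. Over these 6 genes the median change was -0.29 under 2,5-DCB and 0.03 with 4'-OH-2,5-DCB, against 0.04 and 0.10 over all tested probe sets. This grouping by enzyme role was made after the values were seen.

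**Figure D1:**
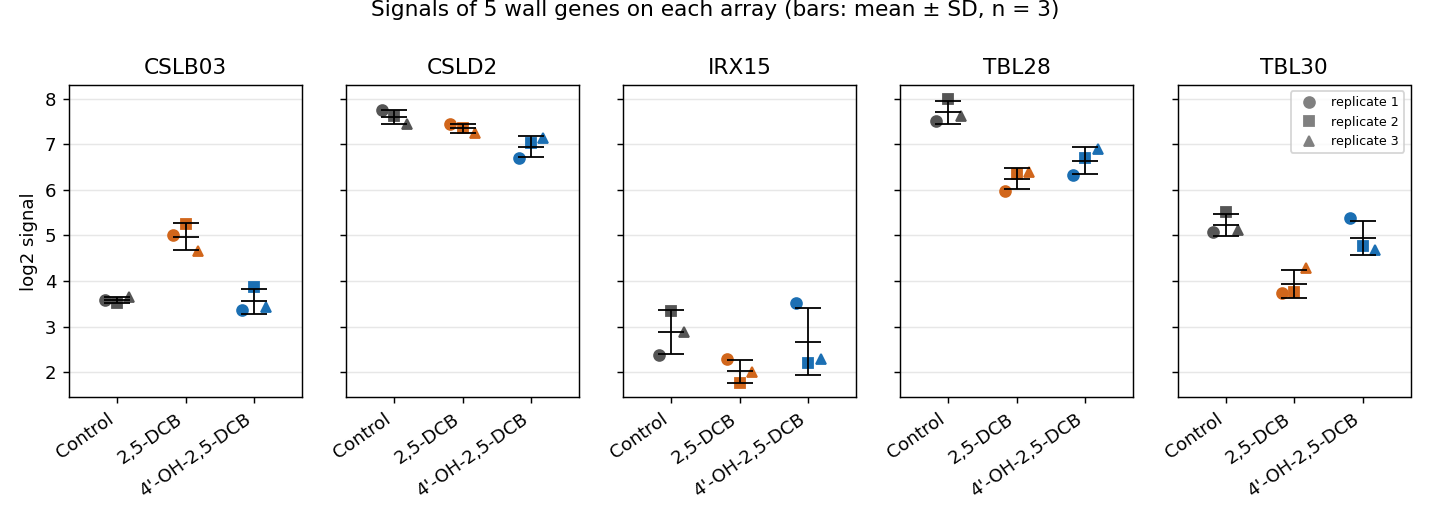
Log2 signal (vertical axis) of CSLB03, CSLD2, IRX15, TBL28 and TBL30 on each of the 9 arrays, by group on the horizontal axis; symbols mark replicates, and bars give the mean ± SD of 3 arrays. TBL28 lies below 7 on all 6 exposed arrays and above 7 in the control; CSLB03 is higher on the 3 arrays of 2,5-DCB than on the other 6, and TBL30 is lower on them than on any other array.

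The 4 genes of mannan acetylation, TBL23 to TBL26, encode acetyltransferases active on mannan. Under 2,5-DCB TBL24, TBL25 and TBL26 had lower signals on every exposed array than on any control array (14.1% of all tested probe sets were lower in this way), but none passed. TBL24 had 6.62, 6.90 and 6.91 in the control and 6.44, 6.42 and 6.36 under 2,5-DCB, a change of -0.40 (SE 0.18, adjusted p 0.297). TBL26 had 4.80, 4.62 and 4.72 against 4.31, 4.07 and 4.53, a change of -0.41 (SE 0.17, adjusted p 0.272). TBL25 had 8.06, 8.22 and 8.09 against 7.99, 7.77 and 7.68, a change of -0.31 (SE 0.15, adjusted p 0.352). TBL23 had a change of 0.04. All 4 overlapped the control under 4'-OH-2,5-DCB, with changes of -0.12 to 0.08. Their median was -0.36 under 2,5-DCB and 0.02 with 4'-OH-2,5-DCB, beside 0.04 and 0.10 over all tested probe sets, and these genes too were grouped after their values were seen.

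None of the other 13 TBL genes passed in any comparison. TBL45, whose close relative PMR5 affects powdery mildew resistance and pectin, came nearest. It had 6.37, 6.73 and 6.86 in the control and 5.88, 6.08 and 6.02 under 2,5-DCB, with all exposed arrays lower (change -0.66, SE 0.21, adjusted p 0.127), and was called with only the 6 arrays compared and with array weights. With 4'-OH-2,5-DCB it read 6.40, 6.30 and 6.92, overlapping the control (change -0.11, adjusted p 0.767). TBL37, a gene known to respond to jasmonate, had 6.63, 6.55 and 6.81 in the control and 7.52, 6.98 and 6.84 under 2,5-DCB, higher on all 3 arrays by a narrow margin (change 0.45, SE 0.20, adjusted p 0.305).

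TBL36 was the most scattered of the brighter TBL genes. It read 7.48, 7.20 and 7.57 in the control, 6.19, 7.15 and 7.40 under 2,5-DCB, and 7.11, 8.39 and 8.35 under 4'-OH-2,5-DCB. Replicates 2 and 3 of 4'-OH-2,5-DCB lay above all other arrays and replicate 1 below most. Its change under 4'-OH-2,5-DCB was 0.54 (SE 0.39, adjusted p 0.484), and 0.96 (SE 0.32, adjusted p 0.117) without that replicate. TBL39 read 6.16, 6.37 and 6.44 in the control and 6.55, 7.23 and 6.53 under 4'-OH-2,5-DCB, the only TBL gene with all arrays of that group above the control (change 0.45, SE 0.22, adjusted p 0.335).

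TBL38, a member linked to pectin acetylation in the seed coat, barely varied, at 6.61 to 6.84 over the 9 arrays. TBL16 was as steady, at 6.36 to 6.63. TBL15 lay below the 25th percentile of the arrays in all 3 groups and TBL31, TBL43, TBL20 and TBL41 in some of them, so differences of these genes may lie in background. TBL18, TBL19 and TBL42 overlapped the control under 4'-OH-2,5-DCB and under 2,5-DCB, with changes of -0.35 to 0.20.

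**Figure D2:**
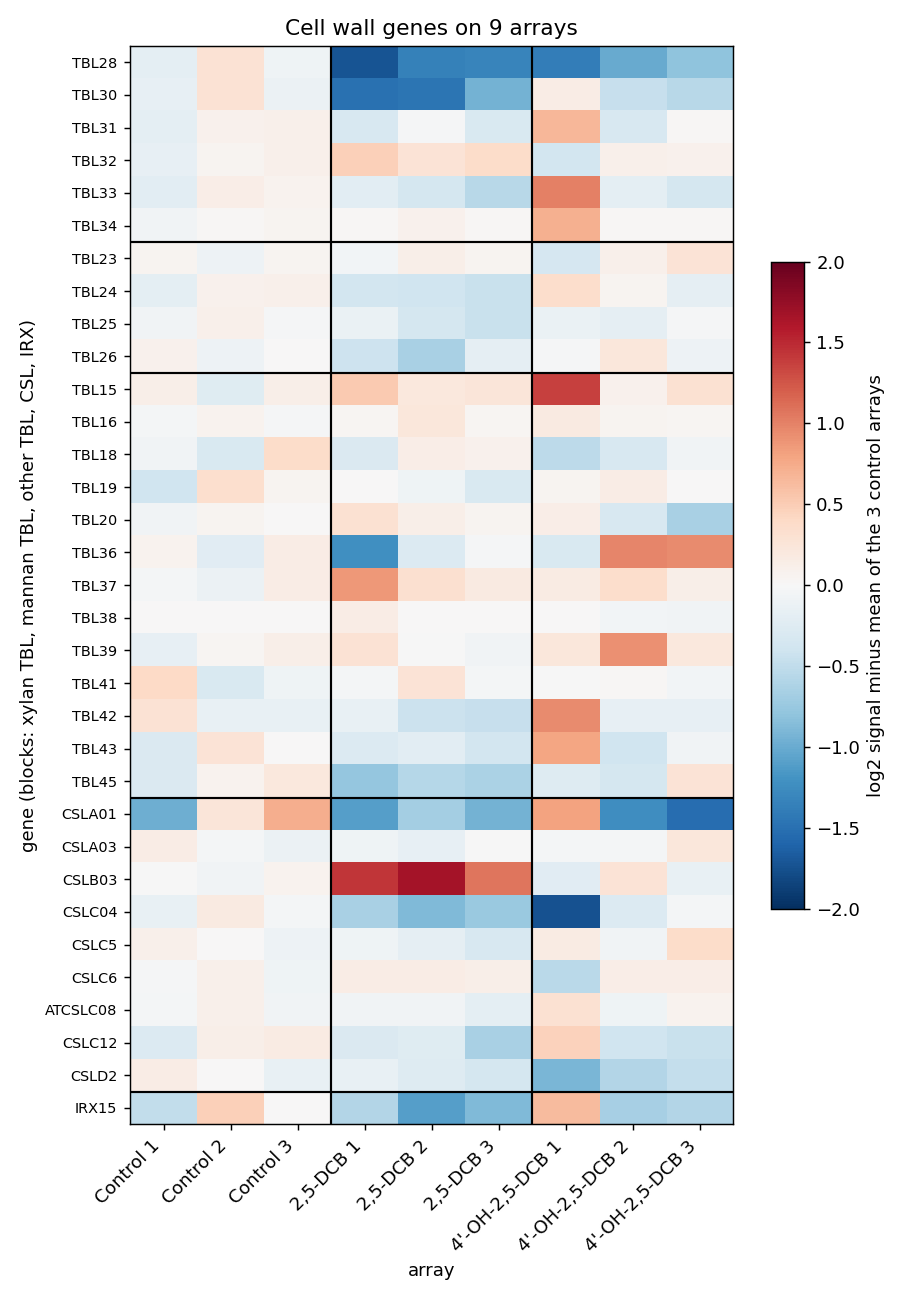
Log2 signal of each of the 33 genes (rows) on each array (columns), minus the mean of the 3 control arrays; red is higher and blue lower, on a scale from -2 to 2, and lines divide the groups and the gene blocks. TBL28 is blue on the 6 exposed arrays and CSLB03 red on the 3 arrays of 2,5-DCB, while the column of 4'-OH-2,5-DCB replicate 1 differs from its neighbours in many rows.

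Among the CSL genes, CSLB03 rose under 2,5-DCB and not detectably under 4'-OH-2,5-DCB. CSLB genes are found in a subset of plants including Arabidopsis, and the polymer they make is not established. The signals of CSLB03 were 3.59, 3.53 and 3.66 in the control, 5.02, 5.25 and 4.66 under 2,5-DCB, and 3.36, 3.86 and 3.44 under 4'-OH-2,5-DCB. The 2,5-DCB arrays lay above all 6 others, which overlapped each other. The gene was dim on those others: its means of 3.59 in the control and 3.55 under 4'-OH-2,5-DCB lay below the median level of all tested probe sets (4.72). The rise was 2.61-fold (log2 change 1.38, SE 0.20, adjusted p 0.00689) and was called with each array left out in turn (adjusted p 0.00231 to 0.0451). Under 4'-OH-2,5-DCB the change was -0.04 (95% interval -0.49 to 0.41, adjusted p 0.925). The neighbouring gene CSLB04 (AT2G32540) was not tested, and as a close relative of CSLB03 (AT2G32530, chromosome 2) it may share signal with that probe set.

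All 5 Arabidopsis CSLC genes, which make the xyloglucan backbone, were measured, and none passed under either exposure. CSLC04 had 9.001, 9.32 and 9.11 in the control and 8.50, 8.26 and 8.40 under 2,5-DCB, lower on every array. Its change was -0.76 with an SE of 0.38 (adjusted p 0.387). It read 7.41, 8.87 and 9.11 under 4'-OH-2,5-DCB, so replicate 1 lay 1.58 below the mean of the other two arrays of its group. Without that array the change under 2,5-DCB was again -0.76 but with an SE of 0.13, and it was called (adjusted p 0.00798). Leaving that array out raised the share of all tested probe sets called under 2,5-DCB from 4.65% to 12.9%. The change of CSLC04 under 4'-OH-2,5-DCB then went from -0.68 to -0.15 (adjusted p 0.594). CSLC5, CSLC6, ATCSLC08 and CSLC12 had changes of -0.39 to 0.14 under 2,5-DCB and -0.13 to 0.15 under 4'-OH-2,5-DCB. Without replicate 1 of 4'-OH-2,5-DCB the latter ran from -0.42 (CSLC12, adjusted p 0.205) to 0.15, and that of CSLC6 went from -0.09 to 0.14. CSLC6 read 7.24, 7.35 and 7.17 in the control and 7.41, 7.41 and 7.37 under 2,5-DCB, a small shift that left no overlap (change 0.14, adjusted p 0.896).

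CSLD2, which acts in root hair growth, was lower on all exposed arrays of both groups. It read 7.75, 7.61 and 7.45 in the control, 7.45, 7.35 and 7.26 under 2,5-DCB, and 6.69, 7.03 and 7.13 under 4'-OH-2,5-DCB. The 2,5-DCB arrays lay just under the control and the 4'-OH-2,5-DCB arrays further down. The change was -0.25 (SE 0.17, adjusted p 0.580) under 2,5-DCB and -0.66 (SE 0.17, adjusted p 0.0788) under 4'-OH-2,5-DCB. Leaving out 4'-OH-2,5-DCB replicate 1, the latter was -0.53 and was called (adjusted p 0.0459). The share of all tested probe sets called there then rose from 2.91% to 7.16%.

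The mannan synthase genes CSLA01 and CSLA03 did not pass. CSLA01 was erratic, at 2.38, 3.60 and 4.08 in the control, 2.25, 2.67 and 2.42 under 2,5-DCB, and 4.16, 2.12 and 1.84 under 4'-OH-2,5-DCB. Both exposed means were under the 25th percentile of their arrays, and its 95% interval under 2,5-DCB ran from -2.27 to 0.45. Under 4'-OH-2,5-DCB its change was -0.65 (SE 0.60, adjusted p 0.559) and, without replicate 1, -1.38 (SE 0.42, adjusted p 0.0942). With array weights it was called lower there. CSLA03 stayed between 4.83 and 5.22. IRX15 was dim throughout, with all group means below the 25th percentile of the arrays. It read 2.38, 3.35 and 2.89 in the control and 2.29, 1.77 and 2.00 under 2,5-DCB (change -0.85, SE 0.37, adjusted p 0.294), and 3.51, 2.21 and 2.29 under 4'-OH-2,5-DCB (change -0.20, adjusted p 0.769).

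**Figure D3:**
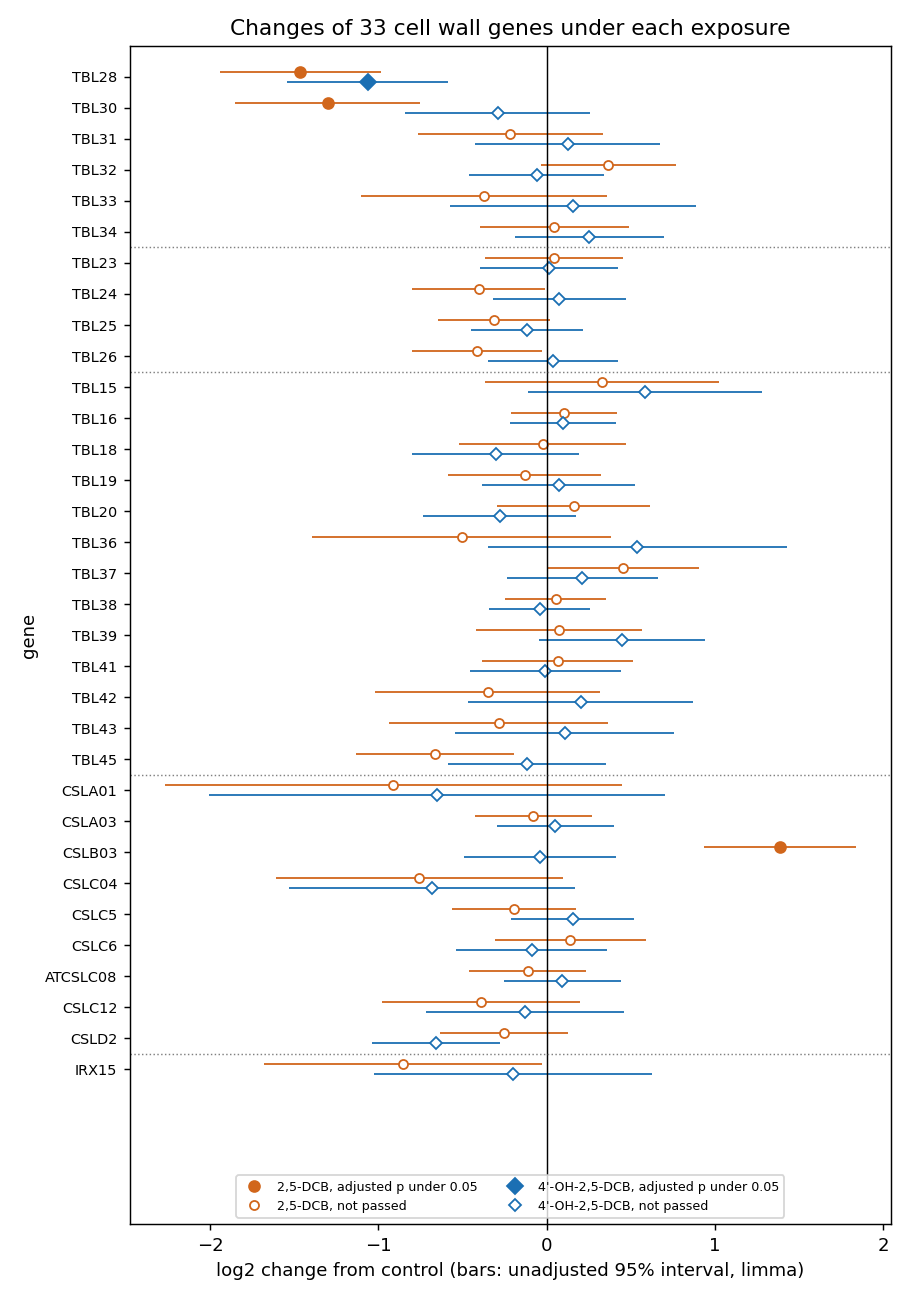
Log2 change from control (horizontal axis) of each gene under 2,5-DCB (orange circles) and 4'-OH-2,5-DCB (blue diamonds); bars are unadjusted 95% intervals from limma, and filled symbols passed an adjusted p of 0.05. TBL28 is filled in both, TBL30 and CSLB03 under 2,5-DCB only.

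Over the families, 3 of 33 genes were called under 2,5-DCB, against 4.65% of all tested probe sets. Of these 1 was higher (background 1.82%) and 2 lower (background 2.82%). With 4'-OH-2,5-DCB 1 of 33 was called, against 2.91% of all, and it was lower (background 1.9%). With so few calls, neither count sets the genes apart from the background. All exposed arrays lay below all control arrays for 9 of 33 genes under 2,5-DCB (background 14.1%) and for 2 of 33 under 4'-OH-2,5-DCB (background 11.4%). They lay above for 5 of 33 (background 16.8%) and for 1 of 33 (background 11.2%). Under both exposures at once 2 of 33 lay below, TBL28 and CSLD2 (background 7.67%), and 0 of 33 above (background 5.95%).

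The median change of the 33 genes was -0.20 under 2,5-DCB, with 21 genes below 0 and 12 above. The median of all 16722 tested probe sets was 0.04, with 7400 below 0 and 9318 above. Under 4'-OH-2,5-DCB the median of the 33 genes was 0.01, with 16 below and 17 above. Over all it was 0.10, with 6685 below and 10037 above. The median signal of the 33 genes on an array had a pooled within-group SD of 0.18. The TBL medians were -0.13 and 0.07, and the CSL medians -0.20 and -0.09. Both comparisons use the same control arrays. For most genes the data limit the size of a change: the 95% interval lay within a 2-fold change either way for 22 of 33 genes under 2,5-DCB and 26 of 33 with 4'-OH-2,5-DCB, against 71.7% and 63.8% of all tested probe sets. In this bulk RNA of whole plants, fewer cells of a type and less RNA per cell cannot be told apart.

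Between the exposures, whose doses differ, 0 of 33 genes passed in limma, as did 0% of all tested probe sets. At an unadjusted p of 0.05, 8 of 33 passed, against 9.9% of all. The widest gaps were those of CSLB03, at -1.42 (4'-OH-2,5-DCB minus 2,5-DCB, 95% interval -1.87 to -0.97, adjusted p 0.0741), TBL36 at 1.04 (0.16 to 1.93, adjusted p 0.433) and TBL30 at 1.01 (0.46 to 1.56, adjusted p 0.227). The gap of CSLB03 was called without 4'-OH-2,5-DCB replicate 1, at -1.33 (adjusted p 0.0403), as were 0.377% of all tested probe sets. That of TBL36 was then wider, at 1.46, but did not pass (adjusted p 0.0928); with array weights it was called. TBL28 differed by 0.40 (interval -0.08 to 0.88), which leaves room for no difference and for one of nearly 2-fold.

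The odd array touched the dim and the bright genes in opposite ways. Among the 16 genes below the median level of the tested probe sets, 4'-OH-2,5-DCB replicate 1 was the highest of the 9 arrays for 9 genes, and its median difference from the other two arrays of its group was 0.74. Among the 17 brighter genes it was the lowest array for 5, with a median difference of -0.21. Over all tested probe sets it was highest for 64.5% of the dimmer and lowest for 47.8% of the brighter ones. Without this array the sign of the change under 4'-OH-2,5-DCB turned for 9 of 33 genes, among them TBL33 (above), TBL42 (from 0.20 to -0.16) and TBL43 (from 0.11 to -0.23), and the median went from 0.01 to -0.05. The change of TBL15 went from 0.59 to 0.19, and that of IRX15 from -0.20 to -0.62, neither called. Without it the calls were 4 of 33 under 2,5-DCB (background 12.9%), 2 of 33 under 4'-OH-2,5-DCB (background 7.16%) and 1 of 33 between the exposures (background 0.377%).

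**Figure D4:**
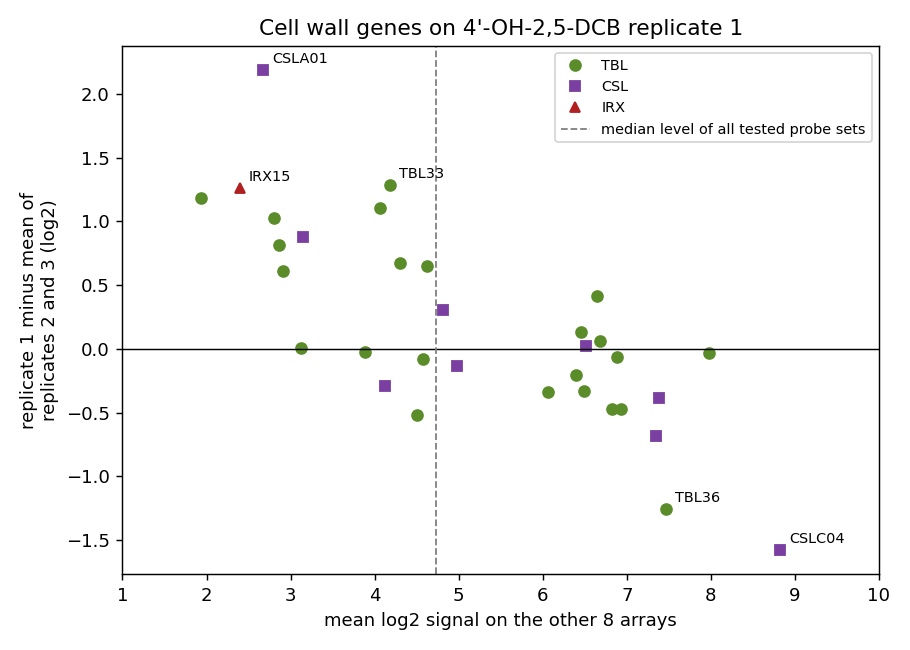
Signal on 4'-OH-2,5-DCB replicate 1 minus the mean of replicates 2 and 3 (vertical axis, log2) against the mean log2 signal on the other 8 arrays (horizontal axis), a point per gene, with the median level of all tested probe sets dashed. Dim genes such as CSLA01 and TBL33 lie above 0, and the bright genes CSLC04 and TBL36 below.

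Few other wall genes are named on these arrays. Of 5 tested genes on the lignin synthesis list 1 was called higher under 2,5-DCB (background 1.82%), too few genes to speak for the pathway. It was CCOAMT (AT1G67980), a caffeoyl-CoA O-methyltransferase gene, which went from 3.22 ± 0.65 to 5.86 ± 0.24 (SD, n = 3 each, log2 change 2.64, SE 0.39, adjusted p 0.00798). Under 4'-OH-2,5-DCB it was at 3.10 ± 0.70, not called (change -0.12, adjusted p 0.874). HCT, which acts earlier on the lignin pathway, had changes of 0.08 and 0.14. Of 3 tested partners of cellulose synthesis 0 were called under either exposure (background 4.65% and 2.91%). Among them COB, needed for oriented cellulose deposition, was at 0.16 and -0.04. Of 1 nucleotide sugar gene (USP) and 2 arabinogalactan glycosylation genes 0 were called. At that background these lists too hold too few tested genes to speak for their pathways. The xylan synthase gene GUT2, also known as IRX10 but outside the symbol rule, had changes of -0.05 and -0.28, neither called. No gene of the lists of hemicellulose partners and secondary wall regulators was tested.

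Tissue markers fixed for the whole plant were checked beside these results. RCA, the leaf Rubisco activase gene, and PYK10, a root beta-glucosidase gene, were both bright, at 11.6 ± 0.03 and 10.6 ± 0.26 in the control. Of 18 root markers 4 were tested: BGLU21 rose by 1.68 with 2,5-DCB and by 2.42 with 4'-OH-2,5-DCB, and EXPA7 and EXPA18 were not called. PYK10 rose by 1.11 under 4'-OH-2,5-DCB, and its change of 0.88 under 2,5-DCB was not called (adjusted p 0.0770). The log2 of their summed signal was 10.4 to 10.9 in the control, 11.3 to 11.8 under 2,5-DCB and 11.5 to 12.2 under 4'-OH-2,5-DCB, without overlap with the control. This sum is mostly the signal of PYK10, since BGLU21, EXPA7 and EXPA18 were far dimmer (5.79, 3.13 and 2.94 in the control). Of 14 flower and pollen markers 5 were tested and 0 called (background 4.65% and 2.91%). Their summed values were 7.43 to 7.77, 6.90 to 7.20 and 7.23 to 7.39 in the same order, lower than in the control on all 6 exposed arrays. Among them AGL65, a MADS-box gene active in pollen, had changes of -1.46 (adjusted p 0.0802) and -1.68 (adjusted p 0.0614). AGL18 went the other way, with changes of 0.32 and 0.64. The median change over the 5 markers was -0.30 and 0.25, so they did not fall together. AGL65 and AGL18, the brightest of them in the control (6.55 and 5.77), weigh most in the sums. Of 14 leaf markers RCA alone was tested and not called, at 11.5 to 11.6, 10.9 to 11.3 and 11.1 to 11.6, below the control on the 3 arrays of 2,5-DCB and overlapping it with 4'-OH-2,5-DCB. None of 11 xylem and fibre markers was tested. The part of tissue make-up in the changes of TBL28, TBL30 and CSLB03 was not tested.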

How the data were processed

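The authors deposited log2 signals, with a single value for each probe set on each of 9 arrays; the submitters' processing notes name Affymetrix Expression Console. Its version, the summarization and the background correction were not given in the sources used here. No further normalization was applied to the 38408 probe sets. The platform annotation pairs 16722 probe sets with 1 gene and 759 with several, which were left out. The other 20927 are unnamed here. Symbols were updated through gene IDs with RefSeq TAIR10.1 (16574 matched, 148 kept their name). No coordinates are printed, since no source used here gives the probe sets' genome build.

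The fit used limma 3.58.1 under R 4.3.3 (lmFit, then eBayes) on all 9 arrays, 1 term per group. Calls are two-sided, at a Benjamini-Hochberg adjusted p under 0.05 over the 16722 probe sets. A test on simulated data preceded the fit. With 3 arrays per group the number of arrays limits the precision. Genes described in most detail are those called in any contrast, the smallest p per family and comparison, and those beyond all controls in both exposures; the other members follow, and those singled out among them were chosen after their values were seen. The genes and lists were chosen with earlier results of these data known. Alternatives were quantile normalization, median centring, filters on dim probe sets, all probe sets, only the arrays compared, trend and robust options, array weights, a minimum change, the replicate number as a block, and each array left out.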

Additional observations from a re-analysis of the deposited data

How the results depend on the processing

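The 3 calls under 2,5-DCB stayed at 3 with quantile normalization, median centring, the 25th percentile filter, all probe sets, trend and robust options, and a minimum change of 1. The count was 1 with probe sets under the 50th percentile left out, a filter that kept 17 genes and removed CSLB03 and TBL30 before testing. It was 5 with only the 6 arrays compared (CSLC04 and TBL45 added) and 7 with array weights (CSLC04, TBL45, TBL24 and IRX15 added). It was 2 to 4 with 1 array left out. For most alternatives the share of all tested probe sets called is not given here, so these counts cannot be set against a background. Without 4'-OH-2,5-DCB replicate 1 that share rose under 2,5-DCB from 4.65% to 12.9%, beside 4 of 33 genes. The 1 call under 4'-OH-2,5-DCB was 3 with quantile normalization (CSLD2 and TBL20 added) or array weights (CSLD2 and CSLA01 added), 2 with median centring or either percentile filter, and 0 with only the 6 arrays compared, where TBL28 kept its change of -1.06 (adjusted p 0.110). With 1 array left out it was 0 to 2. Between the exposures the count was 1 with the 25th percentile filter and 2 with array weights (CSLB03 and TBL36), and 0 to 1 with 1 array left out. CSLB03 was called there with that filter (adjusted p 0.0463), with array weights (0.0102) and without 4'-OH-2,5-DCB replicate 1. Array weights gave that array a weight of 0.065, against 1.16 to 1.92 for the others. The median change under 4'-OH-2,5-DCB was -0.18 with median centring and -0.12 with quantile normalization. Under 2,5-DCB it was -0.30 and -0.26 in the same order. The medians over all tested probe sets with these settings are not given here. CSLD2 passed under 4'-OH-2,5-DCB with quantile normalization, centring, both filters and array weights (adjusted p 0.0487, 0.0378, 0.0496, 0.0322 and 0.0222), and IRX15 under 2,5-DCB with array weights (0.0283). Values near 0 under 4'-OH-2,5-DCB turned: that of CSLB03 was 0.0761 with array weights and ranged from -0.192 to 0.0587 with 1 array left out, above 0 without replicate 1 or 3 of that group, and that of IRX15 ranged from -0.621 to 0.0373, above 0 without control replicate 2 or 4'-OH-2,5-DCB replicate 2. The cause of these shifts was not tested. With the replicate number as a block the counts were 2, 1 and 0, and TBL30 was not called (change -1.30, adjusted p 0.0611). The replicate numbers gave no sign of pairing: deviations of same-numbered arrays correlated at -0.25 to 0.07, and 0 of 9 such pairs exceeded 0.1. Deviations from means of 3 arrays, with 1 array standing apart, cannot exclude pairing.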

Other observations

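Identical values on several arrays were common. Of the 33 genes 15 had the same value on 2 or more arrays, against 45.3% of all tested probe sets, and 2 of 33 (TBL34 and TBL38) on 4 or more, against 9.21%. TBL38 had the same value on all 3 control arrays, so its SD there was 0. A further 3 probe sets pair a TBL gene with another gene in the annotation and were not used. Beside CSLB03 on chromosome 2, AT2G32550 was higher (log2 change 1.11, adjusted p 0.0096) and AT2G32560 lower (-1.13, adjusted p 0.0255) under 2,5-DCB. AT2G32520 (0.14) and AT2G32500 (-0.38) were not called. Over all tested probe sets 4.65% were called under 2,5-DCB.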
